A study of Mus musculus with 6 samples.

Results

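Reactive astrocyte and acute phase genes are transcripts that astrocytes, the glial cells that support neurons, raise after injury or inflammation. The 10 genes described here were listed by name for that role: Gfap, Vim, Serpina3n, Lcn2, Cd44, Osmr, Timp1, Steap4, S1pr3 and Emp1. They were matched by symbol, and 10 of 10 were found among the 55335 genes of each count file. Bulk RNA sequencing had been run on the substantia nigra, a dopamine-producing nucleus of the midbrain, from C57 mice. The control group holds 3 libraries of wild-type mice, and the other group holds 3 libraries with the genotype label shDNAJB1, a hairpin directed at Dnajb1. That gene encodes an HSP40 co-chaperone. The series asked which transcripts differ in this tissue after knockdown of Dnajb1. The labels give no age, vector, injection or time, do not say whether control mice received a hairpin, and do not say that libraries came from separate animals, so a p-value measures the spread between libraries, which may be technical.

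Astrocytes respond to damage through cytokines of the IL-6 family, which bind paired receptors such as OSMR with the shared subunit gp130 and activate the transcription factor STAT3. NF-kB and C/EBP factors act on acute phase genes alongside STAT3. The response includes intermediate filament genes (Gfap, Vim), secreted proteins (Lcn2, Serpina3n, Timp1) and receptors or other membrane proteins (Cd44, Osmr, S1pr3, Steap4, Emp1). None of these genes is made by astrocytes alone, and in bulk tissue fewer cells of a type and less RNA per cell cannot be told apart.

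Short stretches of the members' promoters that match binding motifs of those factors are shown first, because these factors are the known regulators of the response. The sequences are RefSeq promoters of build GRCm38.p6, the build called mm10, with 250 bases before and 50 after each annotated start, and 10 of 10 members matched, with 11 promoters. The motifs searched on both strands were TTCNNNGAA for STAT factors, GGG and TTCC with 3 bases between them for NF-kB, TGANTCA for AP-1, TTGCNNAA for C/EBP and AGAACA for the glucocorticoid receptor. Each line is printed 5′ to 3′ along the gene, with the match in capitals and 10 bases on either side.
Gfap, STAT match starting 2 bases before the start, chr11:102897184-102897212, minus strand: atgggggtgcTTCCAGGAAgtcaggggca
Steap4, STAT match 116 bases before the start, chr5:7960346-7960374, plus strand: ggttgaactcTTCCCGGAAactttgcttc
Emp1, STAT match 120 bases before the start, chr6:135362801-135362829, plus strand: tacaacagggTTCTTTGAAttgatggctc
Serpina3n, NF-kB match 171 bases before the start, chr12:104406527-104406556, plus strand: aacagaggtgGGGCTTTTCCcatcaggaag
Lcn2, C/EBP match 216 bases before the start, chr2:32387938-32387965, minus strand: gcccttcctgTTGCTCAAccttgcacag
Osmr, AP-1 match just after the start, chr15:6874294-6874320, minus strand: gccccgtagtTGATTCAtagctggggc

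The STAT motif was present for 3 of the 10 genes, Gfap, Steap4 and Emp1, and in 8.3% of the 32851 promoters of the table. The NF-kB motif was present for 4 genes (Vim, Steap4, Gfap and Serpina3n) and in 5.6% of promoters. The C/EBP motif was present for Lcn2 and Steap4 and in 10.8% of promoters, the AP-1 motif for Emp1 and Osmr and in 7.8%, and AGAACA for Serpina3n alone and in 19.0%. The Gfap match to the NF-kB motif overlaps its STAT match, and in Emp1 a second STAT match overlaps an AP-1 match. Of the 29 bases shown for Gfap, 17 lie in an annotated exon, and the 28 shown for Lcn2 and the 27 for Osmr lie wholly in exons of GENCODE transcripts. A match is a run of letters and not a measured binding site. The promoters of Cd44, S1pr3 and Timp1 held none of the 5 motifs.

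Total gene counts ran from 24541386 to 38468363 per library, and 18870 genes passed the low-count filter, all 10 members among them. Dnajb1, the targeted gene (chr8:83608193-83612653, mm10), was at 59.8, 47.2 and 51.9 CPM (counts per 1000000, TMM-scaled) in control 1, 2 and 3 and at 44.3, 52.4 and 52.5 CPM in shDNAJB1 1, 2 and 3. Its groups overlapped, with a log2 fold change of -0.09 (SE 0.13) and an adjusted p = 0.910 in edgeR's quasi-likelihood test, so the target gene did not bear out the label, and that group is named below only by it. Homeostatic astrocyte markers were abundant in every library, with a summed level of 7799.6 to 9904.5 CPM in controls, against 7016.4 to 8304.2 CPM in the libraries labelled shDNAJB1. The libraries also differed in their neurons, with 8 dopaminergic markers summing to 679.8 to 2595.3 CPM and 7 GABAergic markers to 896.0 to 2257.8 CPM, and shDNAJB1 3 was lowest in both. Oligodendrocyte markers had lower values in the libraries labelled shDNAJB1 for 12 of 12 genes, and 0 passed the adjusted threshold. Of these markers, 8 had an unadjusted p under 0.05 in edgeR's test and 8 had groups that did not overlap. In the same direction, 630 of all 18870 tested genes had such a p and 1332 had groups that did not overlap.

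None of the 10 genes passed an adjusted p of 0.05 between the groups, and neither did any other gene (0.0% of 18870 tested). Unadjusted, p lay under 0.05 in edgeR's test for 1198 genes, 6.35% of those tested. The members below that value were Lcn2 and Cd44, both with higher values in the libraries labelled shDNAJB1, where 3.01% of all tested genes lay below it in that direction. Lcn2 was the only member whose groups did not overlap, and 14.0% of tested genes had groups that did not overlap, 6.98% with shDNAJB1 higher. Fold changes were above 0 for 8 of the 10 members and for 50.8% of tested genes, but 2 of those 8, Gfap and S1pr3, had a log2 fold change of 0.00. The median log2 fold change of the members was 0.09, and over all tested genes it was 0.01. Without control 3 it was -0.01 and 4 of the 9 members tested were above 0, and without control 2 it was 0.54. DESeq2's Wald test called 35 genes and 0 members. Those 35 are 0.105% of the 33190 genes above 0 in any library, a set without the low-count filter, so that share is not comparable with edgeR's.

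**Figure D1:**
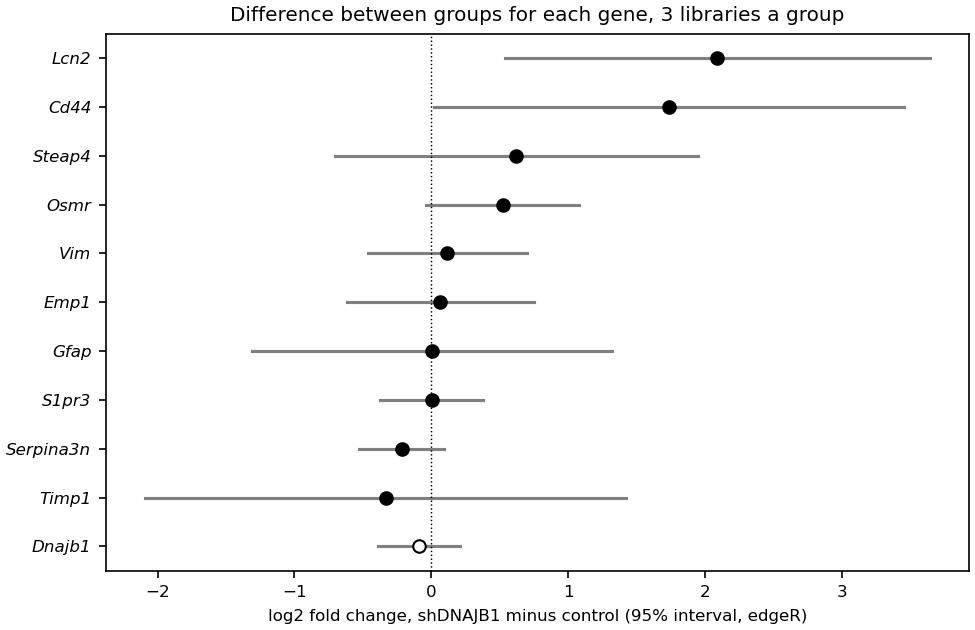
Log2 fold change (shDNAJB1 minus control) of the 10 genes and of Dnajb1 (open circle), on the horizontal axis, with 95% intervals from edgeR's quasi-likelihood fit, 3 libraries a group. Intervals of Lcn2 (0.54 to 3.64) and Cd44 (0.02 to 3.45) lie above 0 before adjustment, and those of the other genes include 0.

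Gfap, which encodes the main intermediate filament protein of astrocytes, was the most abundant member and varied over 3.38-fold between libraries without following the groups. It lies at chr11:102887336-102900912 (mm10, minus strand). The libraries gave 173, 552 and 179 CPM in control 1, 2 and 3 and 451, 163 and 293 CPM in shDNAJB1 1, 2 and 3. Control 2 and shDNAJB1 1 were high and shDNAJB1 3 was intermediate, while the other 3 libraries lay close together, so that each group held both high and low libraries. The group means were 302 ± 217 and 302 ± 144 CPM (SD, n = 3), with a log2 fold change of 0.00 (SE 0.55, 95% interval -1.31 to 1.32) and an edgeR adjusted p = 1.00. That interval spans 0.403 to 2.495 times the control level, so a difference of up to about that size in either direction was not resolved by these libraries. Leaving out 1 library moved the value from -0.40 (without shDNAJB1 1) to 0.78 (without control 2). The SD of log2 Gfap within groups was 0.85, against a median of 0.25 over all tested genes, and exceeded that of 99.4% of genes within 2-fold of its level.

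Vim, the gene for vimentin, the filament protein of immature and reactive astrocytes and of vascular cells, had the same pair of high libraries. It lies at chr2:13573927-13582826 (plus strand). Levels were 27.4, 43.3 and 24.1 CPM in control 1, 2 and 3 and 44.5, 29.2 and 29.2 CPM in shDNAJB1 1, 2 and 3. Control 2 and shDNAJB1 1 stood at about the same height, above the other 4 libraries, and the groups overlapped. On the log2 scale the difference was 0.12 (SE 0.25, 95% interval -0.46 to 0.70), with an edgeR adjusted p = 0.943, and it ran from -0.11 without shDNAJB1 1 to 0.41 without control 2. Of the related filament genes, Nes, for nestin, was at 9.63, 12.9 and 13.2 CPM in controls, against 20.7, 11.5 and 10.7 CPM in the libraries labelled shDNAJB1, and Des, for desmin, at 1.04 to 3.00 CPM. For Nes and Des, shDNAJB1 1 was the highest library.

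Summed markers of some other cell types, microglia and dopaminergic neurons, were also highest in control 2 and shDNAJB1 1. The pattern was not general. GABAergic markers summed to 2141.0 CPM in control 1 and 1834.3 CPM in control 2, and the oligodendrocyte sum of control 2 was the lowest of the controls. The 12 microglial markers summed to 570.3 CPM in control 2 and 628.2 CPM in shDNAJB1 1, against 196.5 to 367.5 CPM in the other 4 libraries, and 0 of the 12 were at 0. Dopaminergic markers summed to 2595.3 and 2065.4 CPM in control 2 and shDNAJB1 1 and to 679.8 to 1608.1 CPM in the others. Within that list Nr4a2 was highest in shDNAJB1 3 and Foxa2 in shDNAJB1 2. shDNAJB1 3, with Gfap at 293 CPM, had the lowest microglial and dopaminergic sums. Homeostatic astrocyte markers differed less, with a geometric mean of 446 CPM in control 2, 392 CPM in shDNAJB1 1 and 326 to 445 CPM in the other libraries. The part of these differences in the Gfap and Vim values was not tested. Looked for after the values were seen, the genes nearest to Gfap in pattern were Myoc, C4b, Lyz2, Nnt and Icosl, by the root mean square difference of centred log2 levels over the 6 libraries (0.26 to 0.37). Myoc, for the secreted protein myocilin, was at 12.9, 36.5 and 12.8 CPM in control 1, 2 and 3 and 32.9, 14.5 and 33.4 CPM in shDNAJB1 1, 2 and 3. C4b, a complement gene that reactive astrocytes also express, was at 37.2, 147 and 58.1 CPM in controls, against 111, 62.1 and 55.8 CPM in the libraries labelled shDNAJB1.

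**Figure D2:**
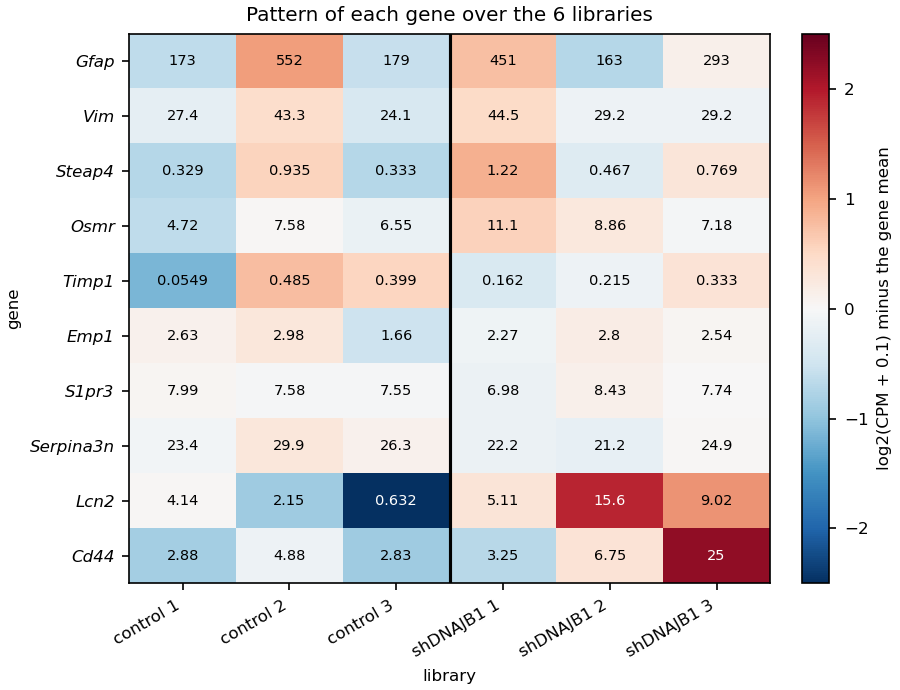
Each row is 1 of the 10 genes and each column 1 library, with the TMM-scaled CPM printed in each cell and the color giving log2(CPM + 0.1) minus the gene's mean over the 6 libraries. Gfap, Vim and Steap4 are highest in control 2 and shDNAJB1 1, Lcn2 is highest in shDNAJB1 2 and 3, and Cd44 stands out in shDNAJB1 3 with 25.04 CPM.

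Lcn2, for lipocalin-2, a secreted protein that binds iron-carrying siderophores and is made by reactive astrocytes, neutrophils and inflamed endothelium, had the smallest unadjusted p of the members. It lies at chr2:32384633-32388252 (minus strand). Counts of 151, 62 and 19 in control 1, 2 and 3 gave 4.14, 2.15 and 0.632 CPM. Counts of 126, 434 and 352 in shDNAJB1 1, 2 and 3 gave 5.11, 15.6 and 9.02 CPM. The groups did not overlap, but shDNAJB1 1 lay close above control 1, and the exact Poisson intervals of those 2 libraries, which cover counting error only, overlapped (4.26 to 6.08 and 3.51 to 4.86 CPM). The means were 2.31 ± 1.76 and 9.90 ± 5.29 CPM (SD, n = 3). On the log2 scale they differed by 2.09 (SE 0.66, 95% interval 0.54 to 3.64), with an unadjusted p = 0.0151 and an edgeR adjusted p = 0.773, after adjustment over all tested genes. An exact two-sided permutation test gave p = 0.1, the smallest that 3 against 3 can reach. Leaving out 1 library moved the value from 1.62 (without shDNAJB1 2) to 2.84 (without control 1), and the direction held each time.

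Neutrophil granule genes were high in shDNAJB1 2 and 3, the 2 libraries with the highest Lcn2 levels. S100a8, whose product pairs with that of S100a9 to bind calcium in neutrophils, was at 1.37, 1.94 and 0.765 CPM in control 1, 2 and 3 and 0.933, 7.32 and 5.51 CPM in shDNAJB1 1, 2 and 3. Its partner S100a9 was at 1.73, 1.94 and 0.965 CPM in controls, against 0.568, 7.54 and 6.77 CPM in the libraries labelled shDNAJB1. Ltf, for lactoferrin, and Ngp, another granule protein gene, had the same pair of high libraries, at 3.27 and 3.56 CPM for Ltf and 3.12 and 3.74 CPM for Ngp, with at most 1.21 CPM for either in the other 4. In shDNAJB1 1 these 4 genes were between 0.162 and 0.933 CPM, within or below the control range, while Lcn2 was at 5.11 CPM there. Of the 12 neutrophil and leukocyte markers, 6 were tested and 0 passed. Log2 fold changes were 1.62 to 1.76 for S100a8, S100a9, Ltf and Ngp and 0.01 for Ptprc and Csf3r. Csf3r, for the receptor of a neutrophil growth factor, had other high libraries, at 4.14, 12.2 and 6.29 CPM in controls, against 11.96, 5.99 and 4.87 CPM in the libraries labelled shDNAJB1. The summed level of the 12 markers was 13.9 to 28.1 CPM in controls, against 22.96 to 36.1 CPM in the libraries labelled shDNAJB1. The neutrophil surface marker Ly6g had 2 counts in shDNAJB1 2 and 10 in shDNAJB1 3 and was at 0 in the other 4 libraries. The part of neutrophil RNA in the Lcn2 values was not tested.

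By the rule for likeness of pattern, the genes nearest to Lcn2 were Xlr3b, Raver1, Cck, Gm4673 and Crhbp, but the differences were large (0.81 to 0.93 on the log2 scale), so that no gene of at least 5 CPM followed Lcn2 closely. S100a8, S100a9, Ltf and Ngp had means under that floor and were not compared, so the search could not have named them. Cck, for the neuropeptide cholecystokinin, was at 20.1, 11.3 and 7.82 CPM in controls, against 11.4, 44.7 and 17.2 CPM in the libraries labelled shDNAJB1.

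**Figure D3:**
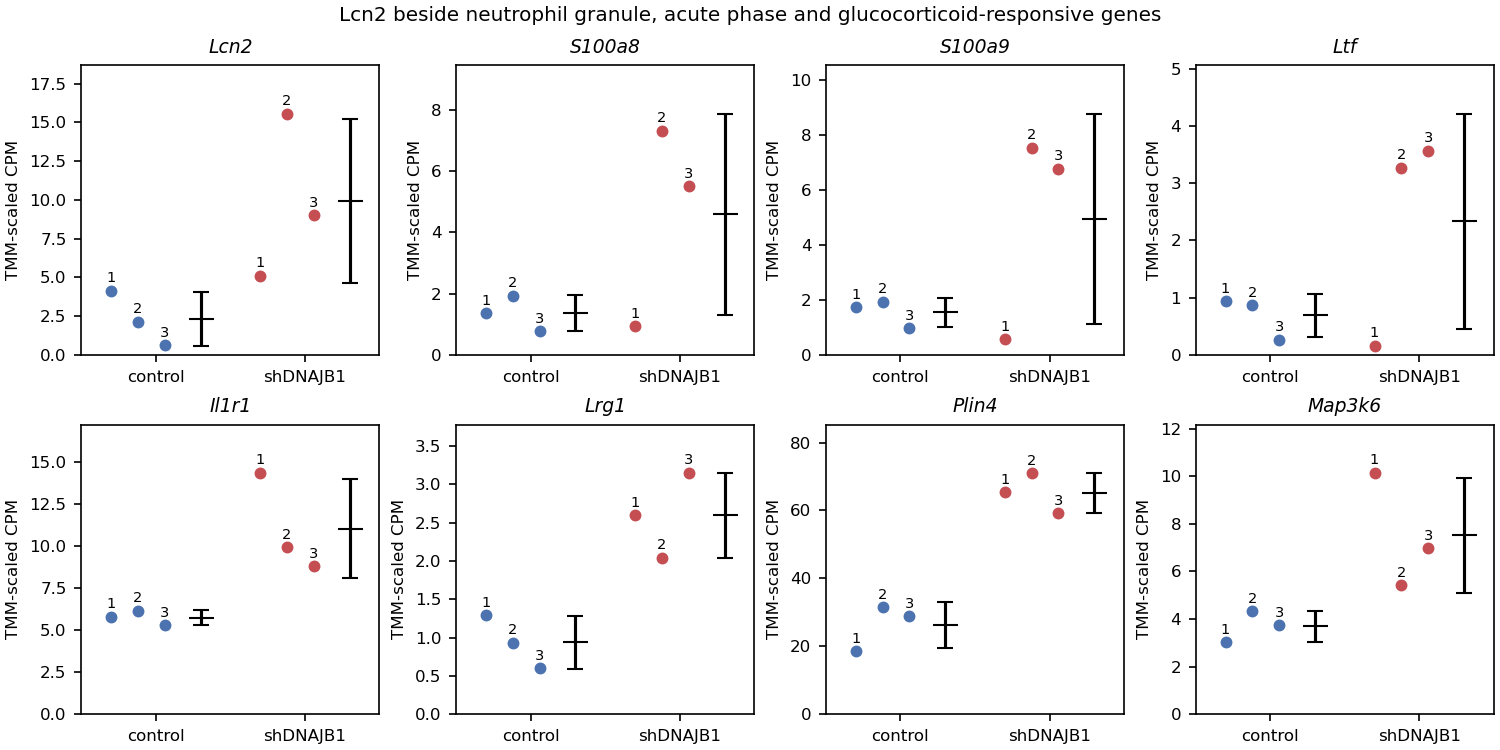
TMM-scaled CPM of Lcn2 and of 7 other genes in the control and shDNAJB1 groups, each point 1 library with its replicate number, and the bar at the side giving the mean ± SD of 3 libraries. S100a8, S100a9 and Ltf are high in shDNAJB1 2 and 3 and low in shDNAJB1 1, while Il1r1, Lrg1, Plin4 and Map3k6 have shDNAJB1 libraries that all lie above the controls. The latter genes are among those of smallest unadjusted p in their lists. Of all tested genes, 6.98% had groups that did not overlap with shDNAJB1 higher. Pdk4 of the glucocorticoid list, not shown, lies the other way.

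Serpina3n, for a secreted serine protease inhibitor widely used as a marker of reactive astrocytes, had values slightly lower in the libraries labelled shDNAJB1. It lies at chr12:104406729-104414329 (plus strand). The libraries gave 23.4, 29.8 and 26.3 CPM in control 1, 2 and 3 and 22.2, 21.2 and 24.9 CPM in shDNAJB1 1, 2 and 3. The groups overlapped through control 1, which lay below shDNAJB1 3. On the log2 scale the difference was -0.22 (SE 0.14, 95% interval -0.53 to 0.09), with an edgeR adjusted p = 0.789. The upper bound of that interval is 1.07 times the control level. Serpina3n lies in a cluster of related genes, and its transcript shared 74.7% to 87.2% of aligned bases with 13 of them. Serpina3g was the only relative that was tested, at 1.08 to 6.64 CPM, and the other 12 had at most 39 counts over the 6 libraries.

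Timp1, for an inhibitor of matrix metalloproteases that is strongly induced in injured brain, was near the limit of detection in both groups. It lies at chrX:20870166-20874735 (plus strand), inside Syn1 on the opposite strand, with which it shares 0 exonic bases. Its counts were 2, 14 and 12 for the 3 controls and 4, 6 and 13 for shDNAJB1 1, 2 and 3, or 0.0549, 0.485 and 0.399 CPM against 0.162, 0.215 and 0.333 CPM. The control libraries spanned the range of the others. Its log2 fold change was -0.33 (SE 0.76), with an interval from -2.09 to 1.42 and an edgeR adjusted p = 0.948. Differences within those bounds were not resolved by these libraries. The other inhibitors of the family were far above it per kilobase of exon, at 111 CPM for Timp2, 23.5 CPM for Timp3 and 8.29 CPM for Timp4, against 0.310 CPM for Timp1.

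Cd44, for the hyaluronan receptor of astrocytes, leukocytes and some neurons, had 1 library far above the rest. It lies at chr2:102811141-102901665 (minus strand). Levels were 2.88, 4.88 and 2.83 CPM in control 1, 2 and 3 and 3.24, 6.75 and 25.04 CPM in shDNAJB1 1, 2 and 3. shDNAJB1 3 was 3.71 times the next library, shDNAJB1 2 lay just above the controls, and shDNAJB1 1 lay among them. The estimated log2 difference was 1.74 (SE 0.72, 95% interval 0.02 to 3.45), with an unadjusted p = 0.0482 and an edgeR adjusted p = 0.773. Its unadjusted p lay under 0.05 in 5 of 14 alternative settings, and an exact two-sided permutation test gave p = 0.2. Without shDNAJB1 3 the difference was 0.51, and without shDNAJB1 1 it was 2.18. shDNAJB1 3 also had the lowest GABAergic sum, with Gad1 at 56.1 CPM against 243 to 882 CPM in the other 5. Looked for after the values were seen, the genes nearest to Cd44 in pattern were Actn2, Rxfp1, Gpr83, Dgkb and Col12a1 (root mean square differences of 0.30 to 0.41), and shDNAJB1 3 was the highest library for each of the 5. Dgkb, a diacylglycerol kinase gene abundant in forebrain neurons, was at 54.2 to 123 CPM in the other 5 libraries and 334 CPM in shDNAJB1 3. Leukocyte markers were mixed. The granule genes Ltf and Ngp were highest in shDNAJB1 3, at 3.56 and 3.74 CPM, but nearly as high in shDNAJB1 2, at 3.27 and 3.12 CPM. Ptprc, for the pan-leukocyte protein CD45, was at 5.13 CPM in shDNAJB1 3 and 3.79 to 9.66 CPM in the others. Oligodendrocyte markers summed to 8910.7 CPM in shDNAJB1 3, the lowest of the 6 libraries, against 12791.9 to 16515.9 CPM elsewhere. The part of leukocytes and of tissue composition in the Cd44 value of shDNAJB1 3 was not tested.

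Osmr, the oncostatin M receptor subunit through which IL-6 family signals reach astrocytes, had values that were higher on average in the libraries labelled shDNAJB1. It lies at chr15:6813577-6874969 (minus strand). The libraries gave 4.72, 7.58 and 6.55 CPM in control 1, 2 and 3 and 11.1, 8.86 and 7.18 CPM in shDNAJB1 1, 2 and 3. The groups overlapped only through control 2, which lay above shDNAJB1 3. The means were 6.29 ± 1.45 and 9.04 ± 1.95 CPM (SD, n = 3), with a log2 fold change of 0.52 (SE 0.24, 95% interval -0.04 to 1.08) and an edgeR adjusted p = 0.773. Endothelial markers, which belong to another cell type that expresses Osmr, were also highest in shDNAJB1 1, with a sum of 629.7 CPM, against 383.1 to 451.1 CPM elsewhere. Of those 10 markers 9 had values above 0 for the log2 fold change, 0 passed and 0 were at 0 in all libraries. The pattern was not particular to endothelium. The 12 mural and fibroblast markers summed to 456.7 CPM in shDNAJB1 1, against 210.1 to 330.3 CPM elsewhere, with 8 log2 fold changes above 0, 4 below and 0 passed. Microglial markers were also highest in shDNAJB1 1, at 628.2 CPM. The part of these cell types in the Osmr values was not tested.

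The ligands and partners of OSMR were measured as well. Osm, the gene of its ligand, had 0, 6 and 3 counts in controls and 0, 2 and 0 in the libraries labelled shDNAJB1, and Il6 had 0, 5 and 0 against 10, 0 and 0 counts, and neither passed the low-count filter. Il6st, for gp130, was at 123, 168 and 128 CPM in controls and 119, 118 and 120 CPM in the others, with a log2 fold change of -0.23 (SE 0.14) and an edgeR adjusted p = 0.781. Its groups did not overlap, yet the lowest control lay within a few CPM of the highest library labelled shDNAJB1. Stat3 was at 57.9 ± 7.57 and 53.0 ± 1.54 CPM (SD, n = 3). Socs3, a feedback inhibitor that STAT3 induces, was at 1.602 ± 0.0911 and 2.10 ± 0.195 CPM (SD, n = 3) with groups that did not overlap and an edgeR adjusted p = 0.810.

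The remaining 3 members are membrane proteins, and S1pr3 was the member whose libraries differed least. S1pr3, a receptor for sphingosine-1-phosphate (chr13:51408639-51422797, plus strand), was at 7.99, 7.58 and 7.55 CPM in controls, against 6.98, 8.43 and 7.74 CPM in the libraries labelled shDNAJB1. Its highest and lowest libraries differed by 1.21-fold and both belonged to the shDNAJB1 label. The fitted log2 difference was 0.00 (SE 0.16, 95% interval -0.37 to 0.38), or 0.772 to 1.30 times the control level, with an edgeR adjusted p = 0.999. S1pr3 shares 45 of its 4463 exonic bases with Gm32834 on the opposite strand, which had at most 35 counts in a library. Per kilobase of exon, S1pr1, the receptor most abundant in astrocytes and endothelium, was at 40.9 CPM, S1pr5 at 13.7 CPM and S1pr3 at 1.73 CPM.

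Emp1, for a small membrane glycoprotein (chr6:135362545-135383173, plus strand), was at 2.63, 2.98 and 1.66 CPM in controls, against 2.27, 2.80 and 2.54 CPM in the libraries labelled shDNAJB1. The libraries labelled shDNAJB1 all lay inside the control range. The estimated log2 difference was 0.06 (SE 0.30, 95% interval -0.62 to 0.75), with an edgeR adjusted p = 0.980. Steap4, a metalloreductase gene (chr5:7960457-7982213, plus strand), was at 0.329, 0.935 and 0.333 CPM in controls, from 12, 27 and 10 counts, and at 1.22, 0.467 and 0.769 CPM in the libraries labelled shDNAJB1, from 30, 13 and 30 counts. Its 3 highest libraries were control 2, shDNAJB1 1 and shDNAJB1 3, which were also the 3 highest for Gfap. The fitted log2 difference was 0.62 (SE 0.58, 95% interval -0.71 to 1.95), with an edgeR adjusted p = 0.848, and it ran from 0.24 without shDNAJB1 1 to 1.29 without control 2. Among its relatives Steap2 was far more abundant, at 81.1, 87.4 and 91.9 CPM in controls, against 69.8, 42.5 and 42.1 CPM in the libraries labelled shDNAJB1, with a log2 fold change of -0.75 (SE 0.20) and an edgeR adjusted p = 0.773.

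**Figure D4:**
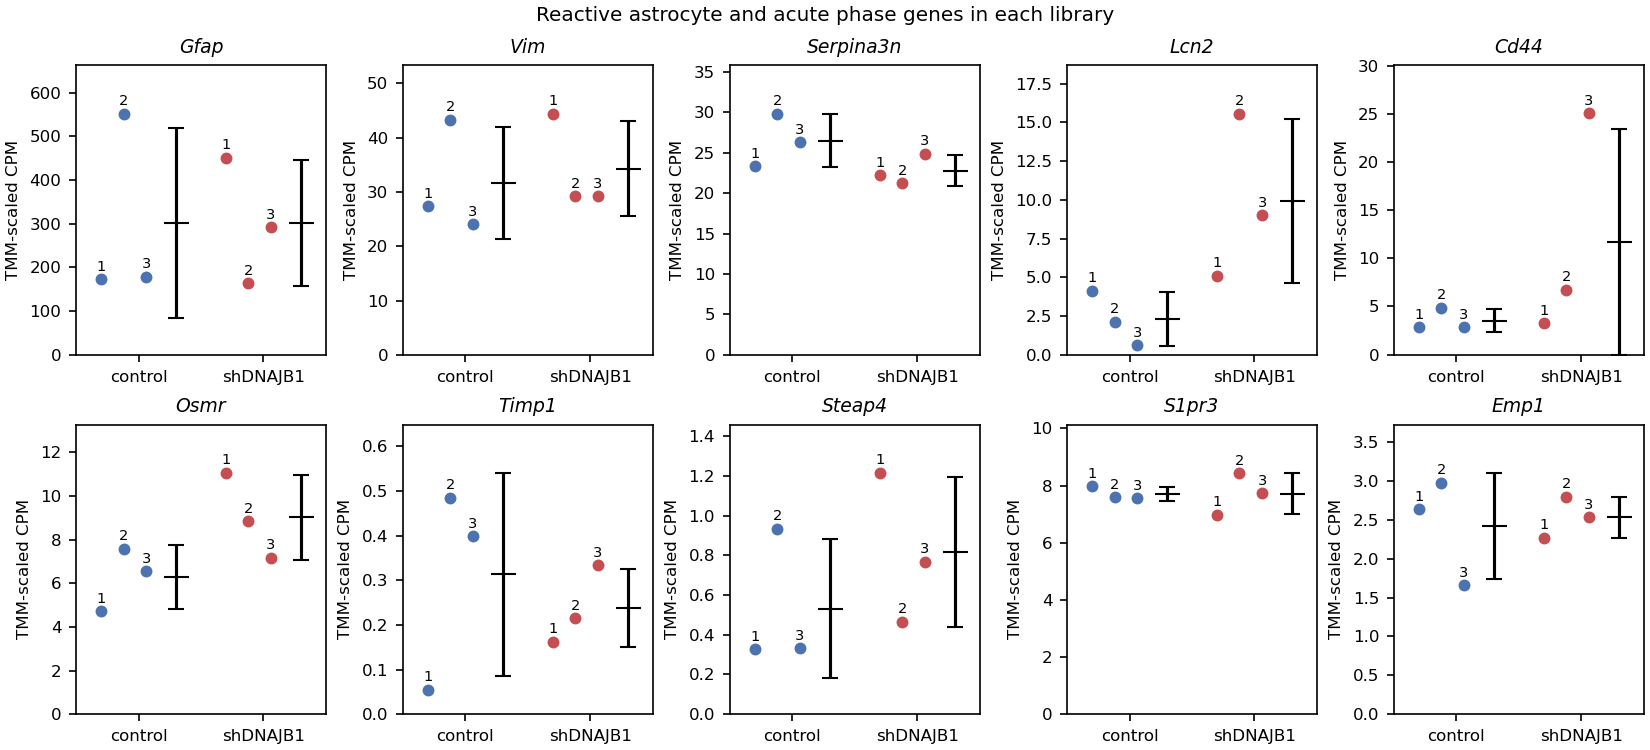
TMM-scaled CPM of the 10 genes in the control (blue) and shDNAJB1 (red) groups, each point 1 library with its replicate number, and the bar at the side giving the mean ± SD of 3 libraries. Points of the groups interleave in every panel but that of Lcn2, Gfap spans 163 to 552 CPM, and 1 library of Cd44 (25.04 CPM) lies far above the others.

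Levels compared per kilobase of exon, as means over the 6 libraries, put Gfap first at 71.6 CPM, Serpina3n next at 11.9 CPM and then Vim at 6.95 CPM. The ranges of these 3 over libraries did not overlap, at 38.7 to 131, 10.3 to 14.5 and 5.09 to 9.37 CPM per kilobase. Lcn2 followed at 2.33, S1pr3 at 1.73 and Cd44 at 1.12 CPM per kilobase, and the ranges of Lcn2 and Cd44 both took in the whole range of S1pr3. The highest Lcn2 library, at 5.94 CPM per kilobase, reached into the range of Vim. Osmr at 0.633, Emp1 at 0.418, Timp1 at 0.310 and Steap4 at 0.214 CPM per kilobase were the lowest, with ranges that overlapped between each neighbouring pair.

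Set against the geometric mean of the 13 homeostatic astrocyte markers of the same library, the same libraries were highest for Gfap, Lcn2 and Cd44. Gfap was at 390, 1237 and 504 per 1000 of that level in control 1, 2 and 3 and at 1149.5, 501 and 819 in shDNAJB1 1, 2 and 3. Osmr then no longer overlapped between the groups, at 10.6, 17.0 and 18.4 per 1000 in controls and 28.2, 27.2 and 20.1 per 1000 in the libraries labelled shDNAJB1. With this scaling 13.1% of tested genes had groups that did not overlap, 12.3% with shDNAJB1 higher. Homeostatic markers themselves had lower values in the libraries labelled shDNAJB1 for 10 of 13 genes, and 0 passed. Slc1a2, the main astrocytic glutamate transporter gene, had a log2 fold change of -0.38 (SE 0.15). This scaling put the median of all tested genes at a log2 fold change of 0.21, against which Osmr had 0.71, Lcn2 2.41, Cd44 1.97 and Serpina3n -0.01, and 0 members passed. Of the genes with an unadjusted p under 0.05, 1278 of 1351 were then higher in the libraries labelled shDNAJB1, against 568 of 1198 with TMM scaling.

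Other genes of the reactive response gave values on both sides. Some of the next lists share genes: Cp and C3 are in the reactive and acute phase lists, Clcf1 in the reactive and IL-6 lists, and Mt1 and Mt2 in the acute phase and glucocorticoid lists. All of these lists were chosen with earlier results of these data known. Their counts of direction and medians are therefore descriptions and not independent evidence. Of 32 further reactive astrocyte genes 29 were tested, 19 with values above 0, 10 below and 0 past the threshold, with a median log2 fold change of 0.13. Cp, for the copper-carrying ferroxidase ceruloplasmin, was at 20.2, 26.0 and 18.0 CPM in controls, against 28.6, 32.6 and 24.8 CPM in the libraries labelled shDNAJB1 (log2 fold change 0.42, SE 0.17, edgeR adjusted p = 0.773). Hspb1, for a small heat shock protein, was at 4.97, 5.33 and 4.09 CPM against 6.49, 5.92 and 6.10 CPM. It was the only 1 of the 29 tested genes of that list whose groups did not overlap. Among all tested genes that share was 14.0%, with 6.98% higher in the libraries labelled shDNAJB1. C3, the central complement gene and a common marker of one reactive state, was at 1.98, 5.64 and 2.93 CPM in controls and 2.52, 1.26 and 1.95 CPM in the others.

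Acute phase genes are best known from liver, and most were at or near 0 here. Of 21 such genes outside the members 9 were tested, and 8 had 0 counts in every library, and a count of 0 allows up to 3 counts in a library, as a one-sided limit on counting error. Among those 8 were Saa3, Orm1, Crp and the 3 fibrinogen chain genes. Of the 9 tested, 7 had values above 0, 2 below and 0 passed, with a median log2 fold change of 0.42. Il1r1, the interleukin-1 receptor gene, was at 5.79, 6.16 and 5.29 CPM in control 1, 2 and 3 and 14.4, 9.94 and 8.82 CPM in shDNAJB1 1, 2 and 3, with a log2 fold change of 0.94 (SE 0.22), an unadjusted p = 0.00248 and an edgeR adjusted p = 0.773. Lrg1, for a secreted leucine-rich glycoprotein of endothelium and liver, was at 1.29, 0.935 and 0.599 CPM in controls and 2.60, 2.05 and 3.15 CPM in the others, with a log2 fold change of 1.46 (SE 0.37) and an unadjusted p = 0.00400 (edgeR adjusted p = 0.773). For Il1r1 and Lrg1 the groups did not overlap, and shDNAJB1 1 was on the high side of both, unlike for the neutrophil genes. No other tested gene of the acute phase list had such groups, and 14.0% of all tested genes did, 6.98% with shDNAJB1 higher.

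Of 23 genes of the IL-6 family and STAT3 pathway 21 were tested, 9 with values above 0, 12 below and 0 past the threshold, with a median log2 fold change of -0.09. Il11ra1, an interleukin-11 receptor gene, was at 17.0 ± 1.88 and 22.3 ± 3.66 CPM (SD, n = 3). Lifr, the leukemia inhibitory factor receptor gene, was at 71.1, 78.3 and 75.0 CPM in controls and 12.5, 61.0 and 47.5 CPM in shDNAJB1 1, 2 and 3. Its groups did not overlap, but a single library carried most of its difference (log2 fold change -0.89, SE 0.50, edgeR adjusted p = 0.781). Jak1, for a kinase bound to gp130, was at 155 to 156 CPM in controls and 106, 127 and 152 CPM in the others. In this list, groups did not overlap for 3 genes with shDNAJB1 higher and 3 with shDNAJB1 lower, Il11ra1, Lifr and Jak1 among them. Of all tested genes, 14.0% had such groups.

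Glucocorticoids act on several acute phase genes in brain, and all 17 genes listed for that response were tested. Of these 12 had values above 0, 5 below and 0 passed, with a median log2 fold change of 0.14. Plin4, which encodes a perilipin of lipid droplets, was at 26.3 ± 6.83 CPM in controls, against 65.2 ± 5.89 CPM in the libraries labelled shDNAJB1 (SD, n = 3), and Map3k6, a stress kinase gene, at 3.69 ± 0.655 and 7.51 ± 2.41 CPM (SD, n = 3). Cdkn1a, for the cell cycle inhibitor p21, was at 10.8 ± 1.08 and 17.3 ± 2.19 CPM (SD, n = 3). Pdk4, a kinase gene that restrains glucose oxidation, had the other direction, at 17.1, 16.3 and 13.3 CPM in controls, against 13.1, 11.9 and 10.3 CPM in the libraries labelled shDNAJB1. For these 4 genes the groups did not overlap, and each had an edgeR adjusted p = 0.773. In the whole list of 17, groups did not overlap for 5 genes with shDNAJB1 higher and 1 with shDNAJB1 lower. Of all tested genes, 14.0% had such groups, 6.98% with shDNAJB1 higher. Fkbp5, the most commonly used marker of that response, was at 27.4, 28.0 and 27.3 CPM in controls and 28.8, 30.5 and 28.6 CPM in the others (log2 fold change 0.09, SE 0.10, edgeR adjusted p = 0.884). In Fkbp5 the groups did not overlap, but they lay within a few CPM of each other.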

How the data were processed

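RNA of 6 libraries was prepared with Trizol and a strand-specific TruSeq kit, per the labels' protocols. The authors deposited raw counts for each Ensembl gene, with 1 file a library. The submitters' processing notes name the build mm10 and the tools STAR 2.5.3a, FastQC 0.11.5, DESeq 1.16.1 and Cuffnorm, with no role. The counting tool, annotation, strand setting and treatment of shared reads were not given in the sources used here, so values of overlapping or closely related genes are uncertain. Symbols, positions and exonic lengths came from GENCODE M21 (55154 of 55335 identifiers matched), and groups from the titles.

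Low counts were removed with filterByExpr (minimum count 10, minimum total 15). Libraries were scaled by TMM, and groups were compared by edgeR 4.0.16 (R 4.3.3) with robust quasi-likelihood fits. Benjamini-Hochberg adjustment ran over all tested genes, with a threshold of 0.05. An SE is the log2 fold change over the square root of F. Spread and likeness of pattern used log2(CPM + 0.1), the latter for genes of at least 5 CPM. Counting intervals are exact 95% Poisson limits and cover counting error only. All pairs of replicates differed by more than sampling noise (chi-square per degree of freedom of at least 16.8).

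The rule for names took all members, their relatives and overlapping genes, up to 4 genes per companion list by unadjusted p, and the 5 genes nearest in pattern to the member of smallest p. Il6, Osm, Il6st, Stat3, Socs3, Fkbp5, Slc1a2, S100a8, S100a9, Ltf, Ngp, Ly6g, Ptprc, Csf3r, Gad1, the acute phase genes at 0 and the genes nearest to Gfap and Cd44 fall outside it and were chosen after their values were seen. The members, lists and tests were chosen with earlier results of these data known. Alternatives were DESeq2 1.42.0 (size factors, Wald test), limma-voom (limma 3.58.1), upper-quartile and homeostatic astrocyte scaling, other filters, a replicate block and each library left out. Transcripts of Serpina3 genes were aligned with blastn 2.17.0, in place of a planned comparison of proteins, which was not done.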

Additional observations from a re-analysis of the deposited data

How the results depend on the processing

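No member passed an adjusted p of 0.05 under any of the 14 alternatives, in which the smallest adjusted p of a member was 0.240 (Cd44, without shDNAJB1 1) and the largest 1.00. Over all genes the count was 0, except 35 in DESeq2's Wald test, and it ran from 0 to 4 on leaving out 1 library, with 4 without shDNAJB1 1; the cause was not tested. The count of members was 0 each time a library was left out. Lcn2, Cd44, Osmr, Steap4 and Serpina3n kept their direction in all alternatives that gave a value, and Lcn2 ran from 1.62 to 2.84 on the log2 scale. Values near 0 changed sign. Gfap was -0.00498 in DESeq2's Wald test and -0.40 to 0.78 on leaving out 1 library, Timp1 was 0.13 in limma-voom and -0.85 to 0.12, Vim ran from -0.11 to 0.41, Emp1 from -0.14 to 0.23 and Dnajb1 from -0.17 to 0.0110. S1pr3 was -0.000547 with DESeq2 size factors, -0.00123 with no low-count filter, -0.00958 in DESeq2's Wald test, -7.51e-05 in limma-voom, -0.00179 with the replicate block and -0.0573 to 0.0667 on leaving out 1 library. Members with an unadjusted p under 0.05 numbered 1 or 2 in each setting but were not always the same genes: Lcn2 in 14 of 14 alternatives, Cd44 in 5 and Osmr in 4. Libraries with the same replicate number had correlations of deviations of 0.051, -0.027 and 0.11, against -0.159 to 0.108 for libraries of different numbers. That gave no clear sign of a pairing, but such correlations cannot exclude one, and the labels state none. The replicate block gave 0 genes, 0 members and -0.09 for Dnajb1. Timp1 and Steap4 had no value with at least 1 CPM in 3 libraries, nor Timp1 without control 3. Depth limits Timp1 and Steap4 most, with 2 to 30 counts per library.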
